A study of Mus musculus with 140 samples.

Results

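The regions described here are the TDP-43 eCLIP clusters that lie in coding sequence. A cluster is a stretch of RNA where the CLIPper peak caller found an accumulation of reads in the TDP-43 immunoprecipitate of one library, and gave it a score relative to the input of that sample. A cluster was counted as coding when its midpoint fell, on the same strand, within a CDS (coding sequence) of the GENCODE vM21 annotation of the mouse mm10 genome. The 32 TDP-43 libraries listed 6331686 clusters, and 2934526 of these were coding. A further 1098141 had their midpoint in a 3′ UTR and 1749911 in an intron. The lists are not filtered, so most clusters are weak, and a cluster is called enriched below when its deposited −log10 p against input was 3 or more and its log2 fold over input was above 0. By that definition 15.2% of the coding clusters that could be assigned to 1 gene were enriched, which left 448537 enriched CDS clusters in 6388 genes.

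The libraries came from brain cortex and striatum of untreated mice at 3 months of age. Non-transgenic (NT) mice were compared with R6/2 mice, which carry a transgene of human HTT exon 1 with an expanded CAG repeat, the mutation of Huntington's disease (HD). R6/2 mice therefore express a fragment of huntingtin, under the human promoter, beside the normal mouse Htt gene. Each of the 4 groups (cortex NT, cortex R6/2, striatum NT, striatum R6/2) held 8 libraries, 4 from males and 4 from females. The labels do not say which cortical and striatal libraries came from the same mouse, so p-values describe the spread between these samples. Tissue was bulk, so that fewer cells of a type and less RNA per cell cannot be told apart, and the cluster lists hold no expression level, so that a gene with fewer RNA molecules and a gene with less TDP-43 on each molecule cannot be told apart by cluster number.

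TDP-43, encoded by Tardbp, is a nuclear RNA-binding protein with a pair of RNA recognition motifs that prefer stretches of alternating G and U. It is best known for binding deep in introns, where it represses cryptic exons, and in 3′ UTRs, including its own, where it regulates its own level. It leaves the nucleus and aggregates in amyotrophic lateral sclerosis and frontotemporal dementia. Coding sequence is where ribosomes, splicing factors and the exon junction complex meet the mRNA.

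The most repeatable coding sites held G-rich pentamers more often than the GU pentamer UGUGU. In 2089 stretches of coding sequence, in 721 genes, enriched clusters of 30 or more of the 32 libraries overlapped. UGUGU, the pentamer that stands for the GU motif here, was present in 54 of these stretches (2.58%), while 1275 (61.0%) held at least 1 of the G-rich pentamers, meaning GAGGA, the related GGAGG, or the GC-only GGCGG. Both sets were searched on the transcript strand alone, as TGTGT and so on in DNA letters, and overlapping matches were allowed. The 3 G-rich pentamers are the leading ones of the same enriched CDS clusters, as given below, so their count is a description and no independent support. It also sets 3 pentamers against 1, and no share expected for coding stretches of these lengths is given. Sites from among those with the highest mean log2 fold over input, at most 1 per gene, are given first, since they show what the strongest coding clusters look like. All sequences are from the GRCm38 (mm10) reference, read 5′ to 3′ on the transcript strand, and capitals mark the 3 G-rich pentamers and TGTGT.
Kif5a, chr10:127238754-127238838, minus strand, coding exon 15 of 28: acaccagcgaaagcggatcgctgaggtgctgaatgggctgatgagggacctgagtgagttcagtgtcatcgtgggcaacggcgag
Ppp1r9b, chr11:95004565-95004718, plus strand, coding exon 8 of 10: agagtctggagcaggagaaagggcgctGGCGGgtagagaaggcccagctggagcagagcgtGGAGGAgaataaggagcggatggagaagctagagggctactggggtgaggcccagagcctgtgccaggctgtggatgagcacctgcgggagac
Purb, chr11:6475737-6475870, minus strand, its only coding exon: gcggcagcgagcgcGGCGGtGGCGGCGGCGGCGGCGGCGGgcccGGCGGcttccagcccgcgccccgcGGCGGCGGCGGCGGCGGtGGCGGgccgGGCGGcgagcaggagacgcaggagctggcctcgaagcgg
Ly9, chr1:171601052-171601074, minus strand, coding exon 4 of 10: tgaagatGGAGGAcgcgggcccc

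The mean log2 fold over input at these sites was 7.21 ± 0.96 (SD, n = 32 libraries) in Kif5a, the heavy chain of a neuronal kinesin motor. It was 6.83 ± 1.12 in Ppp1r9b, the spine scaffold spinophilin that anchors protein phosphatase 1 to actin. Purb, a purine-rich element binding protein whose own coding sequence carries a GGC repeat, stood at 6.19 ± 0.69. The Ly9 site was the highest of all, at 8.35 ± 1.21, although Ly9 encodes a receptor of lymphocytes. None of these sites held UGUGU, and the Kif5a site held none of the G-rich pentamers either.

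The GU motif did occur at a small number of sites that were enriched in nearly every library. The stretches with most UGUGU, again at most 1 per gene, are shown because they are what a TDP-43 site in coding sequence would be searched for by motif.
Snap25, chr2:136770093-136770165, plus strand, coding exon 4 of 7: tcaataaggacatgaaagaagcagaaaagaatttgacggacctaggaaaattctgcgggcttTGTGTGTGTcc
Ppp2r2c, chr5:36952467-36952523, plus strand, coding exon 9 of 9: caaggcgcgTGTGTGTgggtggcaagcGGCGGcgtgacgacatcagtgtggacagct
Atp2b1, chr10:98986897-98987070, plus strand, coding exon 3 of 20: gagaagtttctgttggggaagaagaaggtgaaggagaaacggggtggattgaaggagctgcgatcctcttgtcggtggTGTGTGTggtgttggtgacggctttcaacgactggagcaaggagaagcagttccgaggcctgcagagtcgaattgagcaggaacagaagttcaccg
Snap25, the presynaptic SNARE protein cleaved by botulinum toxin, had the longest such run among these sites and a mean log2 fold of 1.75 ± 0.38 over 30 libraries. Ppp2r2c, a regulatory subunit of protein phosphatase 2A, had 3.69 ± 0.74. Atp2b1, a plasma membrane calcium pump, had 3.66 ± 0.77. All 3 folds were below those of the sites above, a comparison of chosen sites that carries no test.

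UGUGU was also uncommon over all enriched CDS clusters. It lay in 3.94% ± 0.60 of them (mean ± SD over 32 libraries), in 14.3% ± 0.85 of the enriched 3′ UTR clusters and in 10.3% ± 4.21 of the enriched intronic clusters. The lowest 3′ UTR share in any library was 12.4% and the highest CDS share 4.96%, so that CDS and 3′ UTR did not overlap, while introns ranged from 2.43% to 21.1%. Mean cluster length was 66.9 bases in CDS, 61.4 in 3′ UTRs and 49.6 in introns, so longer intervals did not go with the 3′ UTR. Set against all windows of the same length in the CDS of the same genes, enriched clusters lying wholly in CDS held UGUGU in 3.66% of cases against 4.65%, a ratio of 0.78 ± 0.12. The ratio was below 1 in each of the 32 libraries, from 0.50 to 0.996. CDS clusters that were listed but not enriched had a ratio of 0.84 ± 0.06, with 3.37% against 4.00%. The deficit was thus not particular to enriched clusters.

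By −log10 p, the share with UGUGU was lower at each step up in CDS and not in 3′ UTRs. Among CDS clusters with a −log10 p from 3 to 5, 4.50% held UGUGU, and at 50 or more 2.04% of the 7813 clusters did. Clusters of the 32 libraries were pooled here, so a site can count once in each library, and the part of single genes in these steps was not tested. In 3′ UTRs the share was 13.4% at the lowest step, 15% from 20 to 50 and 14.1% at the highest. By log2 fold over input the order was different. The CDS share was 3.86% at a log2 fold under 2, 4.28% from 3 to 4 and 2.77% at 6 or more, and the 3′ UTR share was 20.03%, 13.3% and 14.8% at the same steps. The reading frame showed little preference. The first U of UGUGU lay at codon position 1 in 28.6%, position 2 in 30.9% and position 3 in 40.5% of cases inside clusters, against 29.3%, 28.6% and 42.2% over the same coding sequences.

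**Figure D1:**
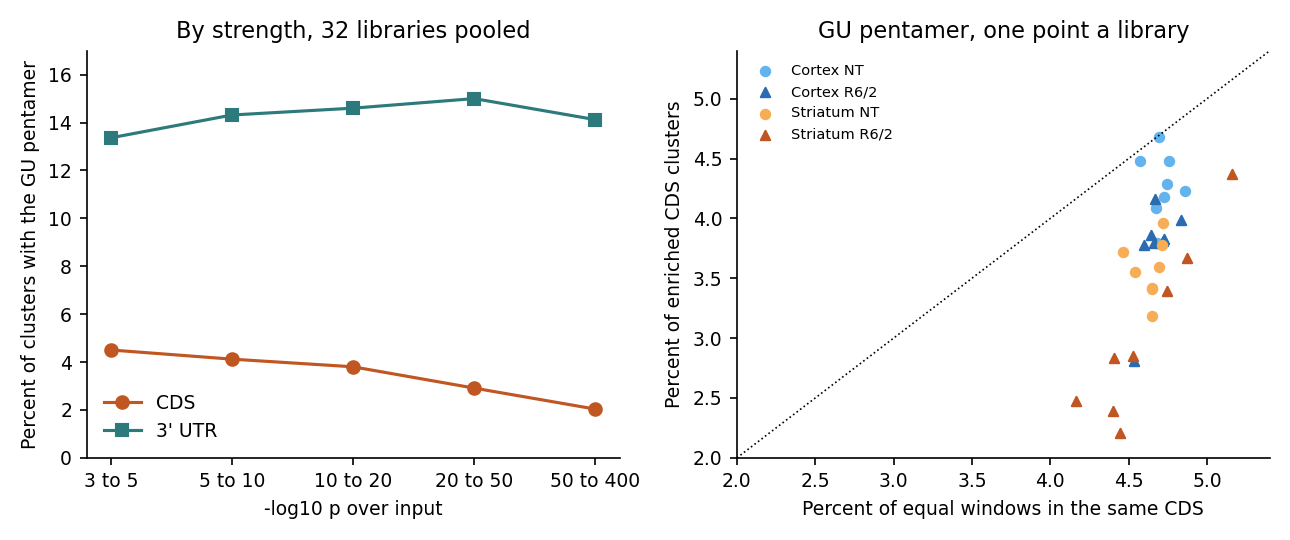
Left, percent of enriched clusters that hold the GU pentamer (UGUGU), by −log10 p over input, in CDS (circles) and 3′ UTRs (squares), with the 32 libraries pooled. Right, 1 point per library, with the percent of enriched CDS clusters that hold the pentamer against the percent of windows of equal length in the same coding sequences. The CDS share falls from 4.50% to 2.04% with −log10 p, and all 32 points lie below the dotted line of equality.

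The pentamers that did lead were G-rich. Of 1024 pentamers, GGCGG had the highest ratio of observed to expected frequency in enriched CDS clusters (2.19, pooled over 32 libraries), followed by GGAGG (2.16), GAGGA (2.13), CGGCG (2.08) and GGGGG (2.03). Each was above 1 in all 32 libraries, and UGUGU ranked 538 of 1024 with a ratio of 0.85. In CDS clusters that were listed but not enriched the same pentamers were above 1 too, at 1.38 for GGCGG, 1.49 for GGAGG and 1.57 for GAGGA. The G-rich pentamers are therefore shared in part with clusters that did not pass the threshold over input. UGUGU had a ratio of 0.85 in the clusters that were not enriched as well. The G-rich pentamers were not particular to coding sequence either. Against the 500 bases on each side, GAGGA was more frequent within clusters by a ratio of 1.38 ± 0.03 in CDS and 2.11 ± 0.13 in 3′ UTRs. UGUGU by the same measure stood at 0.95 ± 0.07 in CDS and 1.47 ± 0.16 in 3′ UTRs. The other alternating pentamer, GUGUG, went the other way in CDS, at 1.13 ± 0.06 there and 1.83 ± 0.16 in 3′ UTRs. Against the same coding sequences it had a ratio of 1.18, above 1 in 28 of 32 libraries, and ranked 215 of 1024, so that the low values of UGUGU do not extend to every GU pentamer. Mean GC content was 55.5% in enriched and 53.0% in other CDS clusters.

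The log2 fold of coding clusters varied between genes and, somewhat more, within them. In each library, 43.2% ± 5.52 of the variance of log2 fold among listed CDS clusters lay between genes with 5 or more such clusters (range 29.9% to 56.9%), with an SD of 0.77 between genes and 0.88 within. Of the 5932 genes with at least 160 listed CDS clusters over the 32 libraries, 2241 (37.8%) had fewer than 1% of them enriched. At the other end, 457 genes (7.70%) had 50% or more enriched and 30 had 95% or more. In 5 genes every listed CDS cluster was enriched in every library. They were Kif5a (1987 of 1987 clusters), Ppp1r9b (1283 of 1283), Purb (477 of 477), Ptms (297 of 297) and Cplx2 (186 of 186). Ptms (parathymosin) and Cplx2 (complexin 2, a SNARE regulator) are named because of this count, after their values were seen. The median log2 fold of these clusters was 5.85 in Kif5a and 2.94 in Ptms. Kif5a had 42 to 76 clusters per library, whose summed length was 44.3% to 49.8% of that of its CDS of 3081 bases, and the weakest Kif5a cluster of any library had a −log10 p of 12.6.

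Long messages of the cytoskeleton held the most clusters. The highest means over the 32 libraries were 160 ± 34.7 enriched CDS clusters in Dst (dystonin, a cytoskeletal linker), 158 ± 55.7 in Syne1 (a nuclear envelope spectrin-repeat protein), 99.4 ± 22.1 in Sptbn1 (beta-spectrin), 90.7 ± 38.7 in Macf1 (a microtubule and actin crosslinker) and 72.4 ± 21.5 in Sptan1 (alpha-spectrin). Itpr1 (the inositol trisphosphate receptor calcium channel), Chd3 (a chromatin remodeller) and Kif5a followed, with 65.8, 65.4 and 62.1. Their CDS lengths run from 3081 bases in Kif5a to 26397 in Syne1. Per kb of CDS the order was different. Kif5a led with 20.2 clusters per kb, followed by Ppp1r9b (16.4), Cox4i1 (15.9, a subunit of cytochrome c oxidase), Sptbn1 (15.4), Purb (15.3), Klc1 (13.9, a kinesin light chain), Nudt3 (13.8) and Nucks1 (13.7). Over the 6388 genes, Spearman's rho between CDS length and mean cluster number was 0.28, given as a description because genes share libraries. Clusters were concentrated. The 100 genes with most held 26.3% of all enriched CDS clusters and the top 1000 held 73.3%, while 937 genes had one in 1 library only and 506 genes had one in all 32.

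Sptbn1 shows that such a message need not carry its clusters in the 3′ UTR. It had no enriched 3′ UTR cluster in its 2220 annotated 3′ UTR bases in any library. Among 2507 genes with at least 500 bases of each, the CDS was the denser of the regions in 1444 (57.6%), with a median of 0.931 enriched clusters per kb of CDS and 0.632 per kb of 3′ UTR. Tardbp itself belongs to the other kind. It averaged 0.031 enriched CDS clusters per library, with 1 cluster in a single striatum R6/2 library, against 2.19 in its 3′ UTR. Htt averaged 1.94 in CDS (range 0 to 12) and 3.75 in its 3′ UTR, and in cortex its normalized number was 2.48 ± 2.53 in R6/2 and 3.52 ± 2.79 in NT (log2 change −0.55, SE 0.61, limma adjusted p = 0.645). That interval of change is wide, and Htt had too few striatal clusters to be tested.

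Within a message, enriched clusters kept away from exon junctions. Positions were compared with all bases of the same genes' CDS, weighted by each gene's number of clusters, so that a ratio of 1 means no preference. Midpoints within 25 bases of a junction were found at 0.61 ± 0.06 times the expected share (range 0.45 to 0.71 over 32 libraries), while those 25 to 49 bases away were found at 1.30 ± 0.04 times. At 50 to 99 bases the ratio was 1.10 and at 500 or more 0.97. The same ratios over all listed CDS clusters were 1.01 under 25 bases, 1.31 at 25 to 49 and 0.74 at 500 or more. The deficit next to junctions was thus present in enriched clusters and absent in the listed ones as a whole. Whether cluster length has a part in it was not tested.

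Exon length mattered little once a gene's own exons were taken as the reference. Enriched clusters were found in coding exons of every length class at 0.94 to 1.07 times the expected share. In all listed clusters there was a slope, from 1.23 in exons under 100 bases to 0.84 in exons of 2000 or more. Along the message, the first coding exon held 10.9% of enriched CDS clusters against 8.66% expected (ratio 1.26 ± 0.07, above 1 in all 32 libraries, lowest 1.11). The last coding exon was close to expectation (0.98 ± 0.05), as were internal ones (0.97 ± 0.01). With the spliced CDS divided into 10 equal bins, the ratio was 1.10 ± 0.09 in the first bin and 0.88 ± 0.05 in the last, next to the stop codon.

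**Figure D2:**
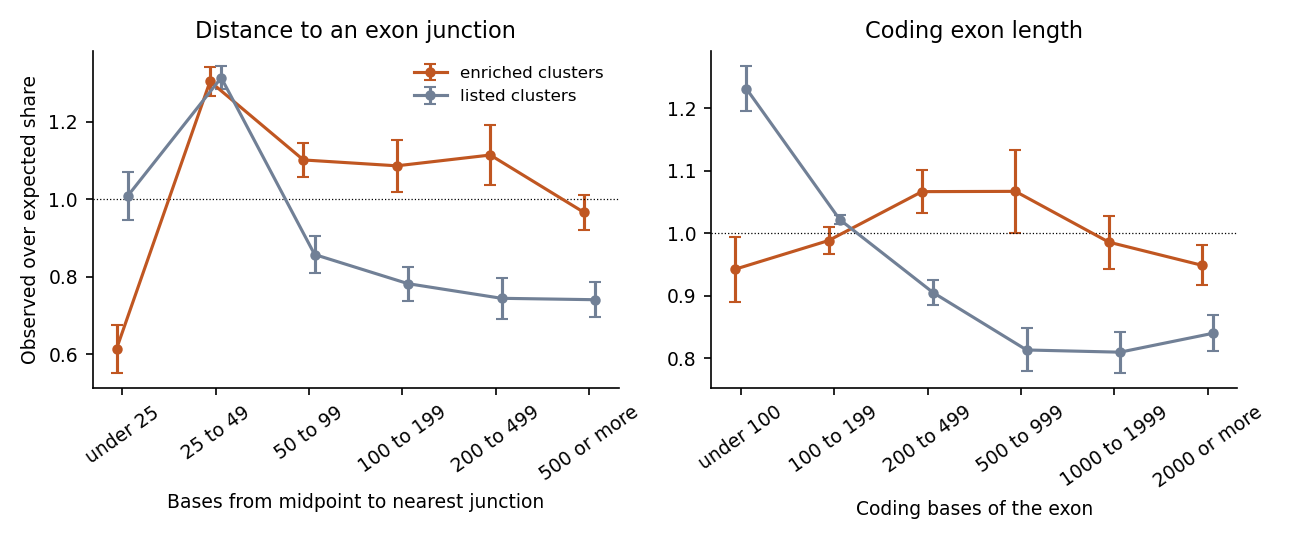
Ratio of the observed share of cluster midpoints to the share of bases in the same genes' CDS, by distance to the nearest exon junction in bases (left) and by coding length of the exon in bases (right). Points are means and bars SD over 32 libraries, and the dotted line marks 1. Enriched clusters lie at 0.61 under 25 bases and at 1.30 from 25 to 49 bases, and between 0.94 and 1.07 over all exon lengths.

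The comparisons that follow ask how coding clusters differed between genotypes and regions. Library totals set the frame. The number of enriched CDS clusters ranged from 2331 to 29660 per library, and 8 R6/2 libraries (3 of cortex and 5 of striatum, among them all 4 striatal females) had 30% or more of their listed clusters in introns, which no NT library had. Results on genotype are given with and without these 8 libraries where they changed. Each library measure was compared by an exact permutation test of group means, two-sided, with labels permuted within sex (4900 labelings, smallest possible p 0.000408) and Benjamini-Hochberg adjustment over 27 tests.

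In the R6/2 striatum the CDS share of enriched clusters was higher than in NT. The CDS share of enriched clusters was lowest 47.3%, median 49.3% and highest 54.4% in striatum NT, and lowest 53.7%, median 57.7% and highest 60.2% in striatum R6/2. NT male 4 stood above R6/2 male 2, and the groups were otherwise apart. The means were 50.2% ± 2.68 and 57.3% ± 2.43 (n = 8 each, exact permutation adjusted p = 0.00735), and the difference was 6.30 points in males and 7.91 in females. Over all listed clusters the CDS share was 49.8% ± 2.13 in NT and 44.7% ± 7.21 in R6/2, a difference of −5.07 points that did not pass (exact permutation adjusted p = 0.0505). It was −0.78 points in males and −9.37 in females, and all 4 R6/2 females are among the libraries rich in intronic clusters. Among CDS and UTR clusters alone the listed share was higher in R6/2, by 5.77 points. The share of enriched clusters in 3′ UTRs was lower in R6/2, from 36.2% ± 2.76 in NT to 28.6% ± 4.13 in R6/2. Without the 8 libraries rich in intronic clusters the difference in the CDS share of enriched clusters was 5.16 points on 3 R6/2 males (exact permutation adjusted p = 0.119). With the study's log2 fold threshold of 3 it was 1.39 points (exact permutation adjusted p = 0.356). In cortex the means were 52.8% ± 2.87 in NT and 55.6% ± 3.91 in R6/2 (adjusted p = 0.175 by the exact permutation test). The difference was −0.06 points in males and 5.77 in females.

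Fewer clusters were enriched in striatum than in cortex. NT striatum libraries had 8993 ± 3137 enriched CDS clusters and NT cortex libraries 20383 ± 4646 (n = 8 each, exact permutation adjusted p = 0.00551, the smallest value reached). All 8 striatum libraries were below all 8 of cortex. Genotype made no difference that passed the threshold, with 17656 ± 5742 in cortex R6/2 and 9067 ± 3672 in striatum R6/2.

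The makeup of the coding clusters also differed between the NT regions. In striatum, 15.5% ± 0.93 lay in coding exons of 1000 bases or more, against 14% ± 0.75 in cortex (exact permutation adjusted p = 0.0110). In striatum 46.8% ± 2.18 lay within 50 bases of a junction, against 50.3% ± 1.43 (exact permutation adjusted p = 0.00882). The median relative position along the CDS was 0.494 ± 0.005 in striatum and 0.479 ± 0.010 in cortex (exact permutation adjusted p = 0.0126). UGUGU was less frequent in striatum, at 3.91% ± 0.18 against 4.48% ± 0.30 (exact permutation adjusted p = 0.00827). The first, second and last of these turned direction over all listed CDS clusters, to −0.39, 1.24 and 0.034 points, so they describe enriched clusters only.

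UGUGU was also rarer in R6/2. In cortex its share of enriched CDS clusters was lowest 3.96%, median 4.44% and highest 4.90% in NT, against 3.06%, 4.02% and 4.29% in R6/2. The groups overlapped, with means of 4.48% ± 0.30 and 3.96% ± 0.39 (exact permutation adjusted p = 0.0207). In striatum the means were 3.91% ± 0.18 in NT and 3.39% ± 0.80 in R6/2, and the test was not passed (exact permutation adjusted p = 0.154). The R6/2 striatum spread widely, from 2.61% to 4.96%. Without the libraries rich in intronic clusters the difference was −0.44 points in cortex (exact permutation adjusted p = 0.0701) and 0.32 in striatum.

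m6A is a methyl mark on adenosine in mRNA, placed mainly near stop codons and in long exons, and the study mapped it by eCLIP in the same regions. A coding cluster was counted as on an m6A site when its midpoint lay under enriched m6A clusters of at least 4 of the 16 m6A libraries of that region. In NT mice 13.5% ± 0.58 of enriched CDS clusters lay on such a site in cortex and 16% ± 0.99 in striatum (n = 8 each, exact permutation adjusted p = 0.00551). The lowest striatal library (15.4%) stood above the highest cortical one (14.5%). Over all listed CDS clusters the share was 9.34% ± 0.30 in cortex NT and 9.95% ± 0.53 in striatum NT. Each region had its own m6A map, and the part of map size in this difference was not tested. The share was 22.8% ± 0.57 for enriched 3′ UTR clusters in cortex NT. In the R6/2 striatum it was 14.8% ± 0.96 (exact permutation adjusted p = 0.0451 against NT). That call was lost on leaving out any 1 of 10 of the 16 libraries and under the study's threshold. Cortex showed no genotype difference past the threshold (13.8% ± 0.92 in R6/2). The share in the last coding exon in striatum, 9.22% ± 0.48 in R6/2 and 9.78% ± 0.32 in NT (exact permutation adjusted p = 0.0451), was as fragile.

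**Figure D3:**
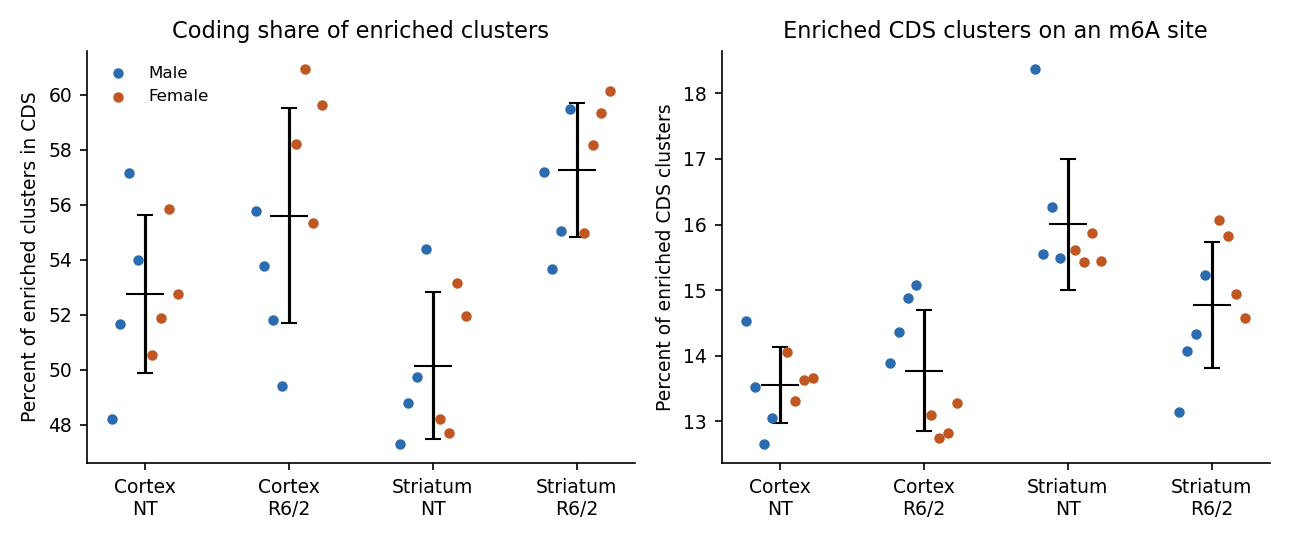
Percent of enriched clusters with their midpoint in CDS (left) and percent of enriched CDS clusters on an m6A site of the same region (right), 1 point per library, for cortex and striatum of NT and R6/2 mice. Bars are mean ± SD of 8 libraries, and the vertical axes do not start at 0. The striatal R6/2 libraries sit between 53.7% and 60.2% on the left, and the NT striatum is the highest group on the right at 16%.

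Genes were compared by their number of enriched CDS clusters, divided by a size factor per library, on the log2(value + 0.5) scale with limma. This scale understates the change of genes with few clusters. A gene was tested when it had 2 or more enriched CDS clusters in at least 50% of the libraries of the comparison. In the striatum, 160 of 1181 genes tested were called at an adjusted p under 0.05 (13.5% of genes tested), 86 higher in R6/2 (7.28%) and 74 lower (6.27%). Without the libraries rich in intronic clusters 17 were called, 7 higher and 10 lower, with 3 R6/2 males left. In the cortex, 111 of 2266 were called (4.90%), 25 higher (1.10%) and 86 lower (3.80%). Without the 3 such cortical libraries 70 were called, in both directions together. These totals on the smaller sets are the background for list counts made without those libraries, and the percentages above do not apply to them. The gene lists used below were chosen with earlier results of these data known, so their counts beside the background share are a description.

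Some messages of striatal medium spiny neurons had fewer coding clusters in R6/2. These neurons, the main output cells of the striatum, are the cells most affected in HD. Of 30 marker genes, 14 had enough clusters to be tested, and 6 fell in R6/2 while none rose (striatal background 6.27% lower). The median log2 change of the 14 was −0.75, against −0.00 over all genes tested. On leaving out the libraries rich in intronic clusters 2 of the 14 were called lower, beside the total called lower on that set given above. The median was then −0.61, against 0.47 over all genes tested on that set. Pde10a, the phosphodiesterase that marks these neurons, had 5.09, 8.72 and 16.3 normalized clusters as lowest, median and highest value in striatum NT and 0, 1.11 and 8.41 in R6/2. A single R6/2 library, male 1, reached into the NT range. The log2 change was −2.71 (SE 0.38, limma adjusted p = 0.000224), and −1.54 without the libraries rich in intronic clusters (limma adjusted p = 0.106). Ppp1r16b, a regulatory subunit of protein phosphatase 1, had 11.1, 12.7 and 15.5 in NT and 0, 2.30 and 6.97 in R6/2, with no overlap, as in 1.86% of genes tested in this direction (log2 change −2.43, SE 0.44, limma adjusted p = 0.00149). Without the libraries rich in intronic clusters its change was smaller, at −0.91, and still called (limma adjusted p = 0.0263). The other 4 were Adora2a (an adenosine receptor of striatopallidal neurons, −1.97), Penk (proenkephalin, −0.97), Arpp21 (−0.85) and Adcy5 (the striatal adenylyl cyclase, −0.84). Members of a list that are not among its 3 richest in clusters were picked for naming after their values were seen. The summed number over the 30 markers was 144 ± 30.5 in striatum NT, 74.7 ± 18.6 in striatum R6/2, 63.4 ± 4.61 in cortex NT and 45.0 ± 7.54 in cortex R6/2. In cortex 9 of the markers were tested and 2 fell (cortical background 3.80% lower). Without the libraries rich in intronic clusters 3 of the 9 fell, beside the cortical total called on that set given above.

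The 3′ UTR of these messages went the same way. Pde10a had 28.1 ± 6.04 normalized 3′ UTR clusters in striatum NT and 5.29 ± 2.89 in R6/2. Of the 74 genes called lower, 39 had 3′ UTR clusters in 50% of the libraries or more, and the change was negative in all 39 (median −0.92, against −0.33 over the 449 tested genes of that kind). The 86 genes called higher did not share this. Of the 14 with 3′ UTR clusters, 4 were positive and 10 negative, with a median of −0.18. Over all 449 tested genes of that kind 94 were positive and 355 negative, so a negative sign was common to tested genes at large. A change of the whole message and a change in coding sequence alone are thus not told apart for the 74 genes called lower by cluster number.

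Several messages of splicing factors had more coding clusters in the R6/2 striatum, but none was called once the libraries rich in intronic clusters were left out. Of a list of 49 factors, 17 were tested, and 9 rose and none fell (striatal background 7.28% higher), with a median log2 change of 0.91. Without those 5 R6/2 libraries 15 of the 17 could be tested, 13 had a positive change and 0 passed limma's threshold (4 at an unadjusted p under 0.05), with a median of 0.68 against 0.47 over all genes then tested. The 9 called with all libraries were Pnisr, Srsf11, Srrm1, Luc7l2, Luc7l3, Son, Srrm2, Hnrnpa2b1 and Hnrnpu. Pnisr, a nuclear speckle protein, had 0, 0.74 and 7.12 normalized clusters as lowest, median and highest in NT and 8.41, 15.4 and 25.7 in R6/2. The groups did not overlap, as in 1.27% of genes tested in this direction (log2 change 3.40, SE 0.58, limma adjusted p = 0.000887). With 3 R6/2 males left the change of Pnisr was 2.80 (limma adjusted p = 0.204). Srsf11, a serine- and arginine-rich splicing factor, had 0, 0.41 and 3.05 in NT and 3.36, 13.4 and 22.8 in R6/2, again without overlap (3.28, SE 0.48, limma adjusted p = 0.000282). Srrm2, a scaffold of nuclear speckles, went from 11.3 to 36.0 (1.78, limma adjusted p = 0.000413). In cortex 26 of the 49 were tested, 24 had a positive change and none passed the threshold, with a median of 0.34 against −0.10 over all genes. The R6/2 difference between regions was not called for any of them.

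Outside these lists, Smarca1, the SNF2L chromatin remodeller, had the largest fall among the genes named in the striatum. It had 5.04, 7.44 and 11.9 normalized clusters as lowest, median and highest in NT and 0, 0 and 1.59 in R6/2, so the groups were wide apart (log2 change −3.43, SE 0.37, limma adjusted p = 2.59e-05). In cortex it had 7.57, 12.8 and 16.1 in NT and 0, 1.77 and 5.19 in R6/2 (−2.58, SE 0.44, limma adjusted p = 0.00191). It was the one gene among those named with the largest falls in both regions. Krt9, a keratin, had 4.83, 6.78 and 12.6 in striatum NT and 0, 0.95 and 2.80 in R6/2 (−2.63, SE 0.39, limma adjusted p = 0.000284). Crocc (rootletin, of the ciliary rootlet) and Strbp (the spermatid perinuclear RNA-binding protein) fell by 2.16 and 1.71 on the log2 scale. Crocc did so with overlap between the groups. With those libraries left out, Smarca1 (−3.19) and Krt9 (−1.73) were still called, while Crocc (−0.50) and Strbp (−1.23) were not. Among the genes that rose, Arglu1, a splicing coactivator, went from 0.85 ± 0.89 to 8.45 ± 4.23 (2.83, SE 0.47, limma adjusted p = 0.000607). Dmd (dystrophin) rose by 2.65, Ccar1 (a cell cycle and apoptosis regulator) by 2.17 and Chd6 (a chromatin remodeller) by 2.16. Neither Ccar1 (1.73) nor Chd6 (3.13) was called without those libraries, where Srsf11, Arglu1 and Dmd had too few clusters to be tested.

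**Figure D4:**
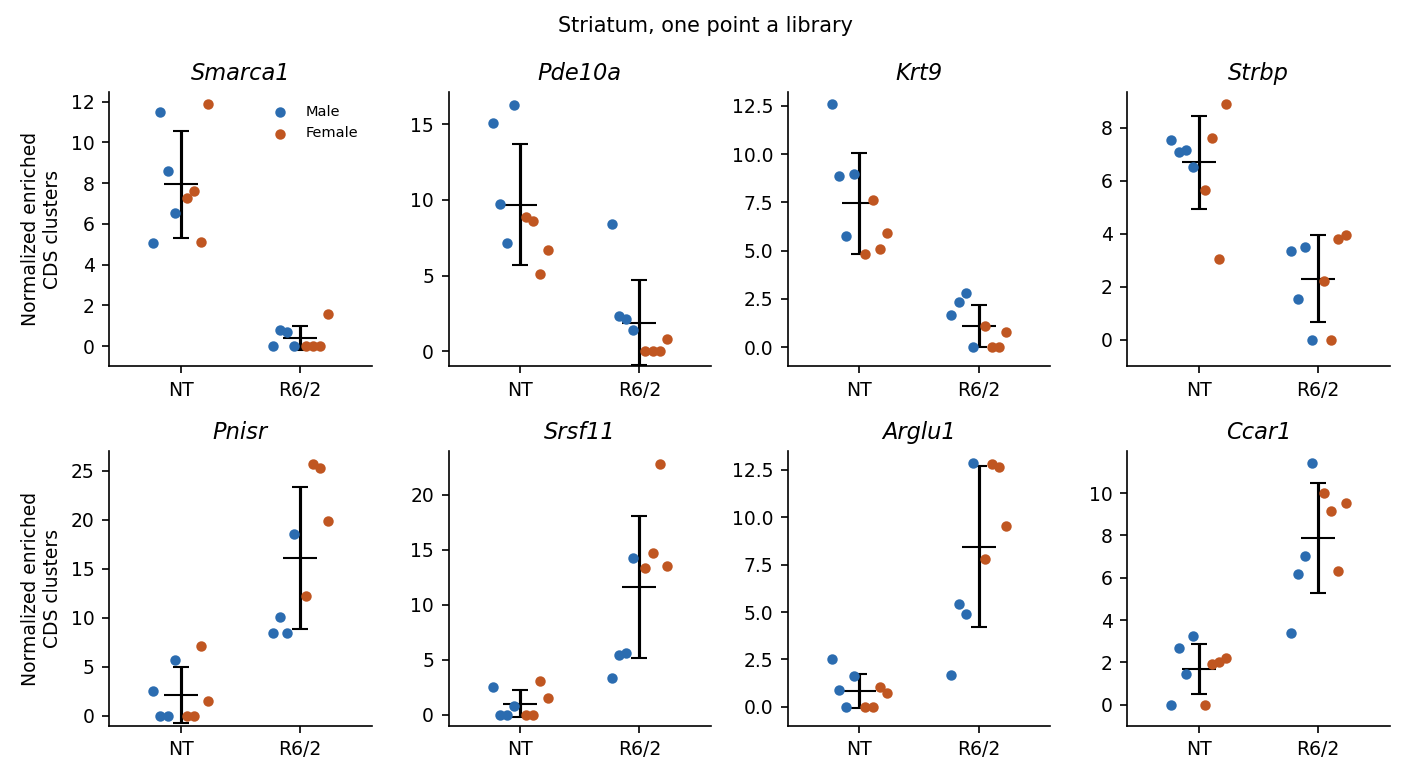
Normalized number of enriched CDS clusters in 8 genes of the striatum, 1 point per library, males and females in different colours, bars mean ± SD of 8 libraries per genotype. Smarca1, Krt9 and Strbp fall to means of 0.38, 1.09 and 2.30 in R6/2, 1 male R6/2 library of Pde10a stays at 8.41, and Pnisr and Srsf11 rise to 16.1 and 11.6.

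The sites that carry these changes can be read directly. For each of the leading genes the coding stretch with the largest difference in number of libraries is given, with the number of striatal libraries (8 per genotype) in which an enriched cluster covered it.
Smarca1, chrX:47851645-47851707, minus strand, coding exon 15 of 23, 7 NT and 0 R6/2: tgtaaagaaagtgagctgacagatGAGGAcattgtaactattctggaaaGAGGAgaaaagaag
Krt9, chr11:100188824-100188858, minus strand, coding exon 7 of 8, 7 NT and 0 R6/2: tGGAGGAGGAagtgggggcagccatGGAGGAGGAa
Pde10a, chr17:8929092-8929137, plus strand, coding exon 4 of 22, 7 NT and 0 R6/2: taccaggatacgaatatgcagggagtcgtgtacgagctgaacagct
Pnisr, chr4:21854358-21854393, plus strand, coding exon 1 of 11, 0 NT and 8 R6/2: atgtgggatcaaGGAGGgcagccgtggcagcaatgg
Srsf11, chr3:158012313-158012441, minus strand, coding exon 12 of 13, 1 NT and 8 R6/2: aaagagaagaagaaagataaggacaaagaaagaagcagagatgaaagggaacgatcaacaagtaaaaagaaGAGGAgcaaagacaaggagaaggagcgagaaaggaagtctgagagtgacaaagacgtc
Arglu1, chr8:8689977-8690057, minus strand, coding exon 1 of 4, 0 NT and 7 R6/2: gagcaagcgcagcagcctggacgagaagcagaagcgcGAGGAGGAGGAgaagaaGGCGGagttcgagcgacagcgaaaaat
None of these 6 stretches held UGUGU and 5 held a G-rich pentamer, among those that fell as among those that rose. The purine content was 73.0% in Smarca1, 82.9% in Krt9, 84.5% in Srsf11, 76.5% in Arglu1, 69.4% in Pnisr and 60.9% in Pde10a. These stretches were chosen for the difference between the genotypes, so the library numbers are a description, as are the pentamer counts.

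Cluster number depends on the threshold over input, and a gene can cross it because its RNA is more abundant. The log2 fold over input of a gene's clusters is relative to the same sample's own RNA and was compared as a second measure, added after the cluster numbers had been seen. It was the median over all listed CDS clusters of a gene, minus the library's median, in genes with 3 or more such clusters in every library. It shares clusters with the first measure and is no independent evidence of it. In the striatum 151 of 5187 genes were called, 45 higher (0.868%) and 106 lower (2.04%). Of the 73 genes called lower on number and tested here, 70 were lower in fold too and 30 of these passed. Of the 85 called higher, 64 were higher in fold and 6 passed. In the cortex 53 of 6050 genes were called, 21 higher (0.347%) and 32 lower (0.529%), and between the NT regions 202 of 5142, 102 higher in striatum (1.98%) and 100 lower (1.94%). With the libraries rich in intronic clusters left out, limma called 0 of the 5187 striatal genes, with 392 at an unadjusted p under 0.05, and 3 of the 6050 cortical genes, all lower. The genotype calls on fold that follow were made with all libraries.

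With all libraries, Smarca1, Krt9 and Strbp fell in both measures. In the striatum the relative log2 fold of Krt9 was 2.97 ± 0.62 in NT and 1.38 ± 0.47 in R6/2 (limma adjusted p = 5.20e-05). That of Smarca1 was 1.40 ± 0.39 and 0.38 ± 0.22 (limma adjusted p = 0.000879), and that of Strbp 1.41 ± 0.48 and 0.40 ± 0.28 (limma adjusted p = 0.00501). On the smaller set of libraries the striatal differences were −1.59 in Krt9, −1.08 in Smarca1 and −1.36 in Strbp, of like size and past limma's threshold in none (limma adjusted p = 0.124, 0.200 and 0.124). Smarca1 also fell in cortex, from 1.03 ± 0.33 to 0.19 ± 0.28 (limma adjusted p = 0.0138, and 0.100 on the smaller set with a difference of −0.83). Pde10a did not follow. Its relative log2 fold was −0.13 ± 0.31 in NT and −0.18 ± 0.27 in R6/2, a difference of −0.05 with an SE of 0.15 (limma adjusted p = 0.886), beside the large fall in its number of enriched clusters.

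A few RNA processing genes rose in both measures with all libraries. Srsf11 went from −0.68 ± 0.41 to 0.13 ± 0.40 (limma adjusted p = 0.0236) and Arglu1 from −0.55 ± 0.34 to 0.13 ± 0.39 (limma adjusted p = 0.0465). Ccar1 went from 0.23 ± 0.40 to 0.91 ± 0.36 (limma adjusted p = 0.0492). Pnisr missed the threshold, with a difference of 0.69 (SE 0.20, limma adjusted p = 0.0652). Over the list of splicing factors, 32 of 39 tested had a positive difference in the striatum, with a median of 0.38 against 0.06 over all genes, and 1 passed the test in each direction. On the set without libraries rich in intronic clusters 26 of the 39 were positive, with a median of 0.08 against 0.05 over all genes, and the difference was 0.37 in Srsf11, 0.11 in Arglu1 and 0.47 in Ccar1, none of them called. In the cortex 32 of 40 were positive, with a median of 0.25 against 0.05. Of the medium spiny neuron markers 3 of 18 fell in the striatum (background 2.04% lower), and the median difference was −0.04. On the smaller set limma called 0 of the 18, with 3 at an unadjusted p under 0.05.

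Among the 8 genes with most clusters per kb, Ppp1r9b, Klc1 and Nudt3 had a lower fold in the R6/2 striatum with all libraries. Ppp1r9b went from 4.92 ± 0.28 to 3.82 ± 0.41 in striatum (limma adjusted p = 0.00524) and from 4.69 ± 0.17 to 3.81 ± 0.31 in cortex (limma adjusted p = 0.0249). Klc1 differed by −0.65 in striatum and −0.58 in cortex (limma adjusted p = 0.0436 and 0.0292), and Nudt3 by −0.89 in striatum (limma adjusted p = 0.0337). Kif5a went from 5.36 ± 0.40 to 4.75 ± 0.49 in striatum, which did not pass (limma adjusted p = 0.135), and neither did Purb (limma adjusted p = 0.142). Itpr1, the calcium release channel of the endoplasmic reticulum, fell from 2.30 ± 0.29 to 1.37 ± 0.31 in striatum (limma adjusted p = 0.00402). On that smaller set the striatal difference was −0.82 in Ppp1r9b (limma adjusted p = 0.603) and −0.93 in Itpr1 (limma adjusted p = 0.323), and the cortical one −0.81 in Ppp1r9b (limma adjusted p = 0.100). Klc1 (−0.72 in striatum, −0.65 in cortex) and Nudt3 (−0.49) were not called there either.

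**Figure D5:**
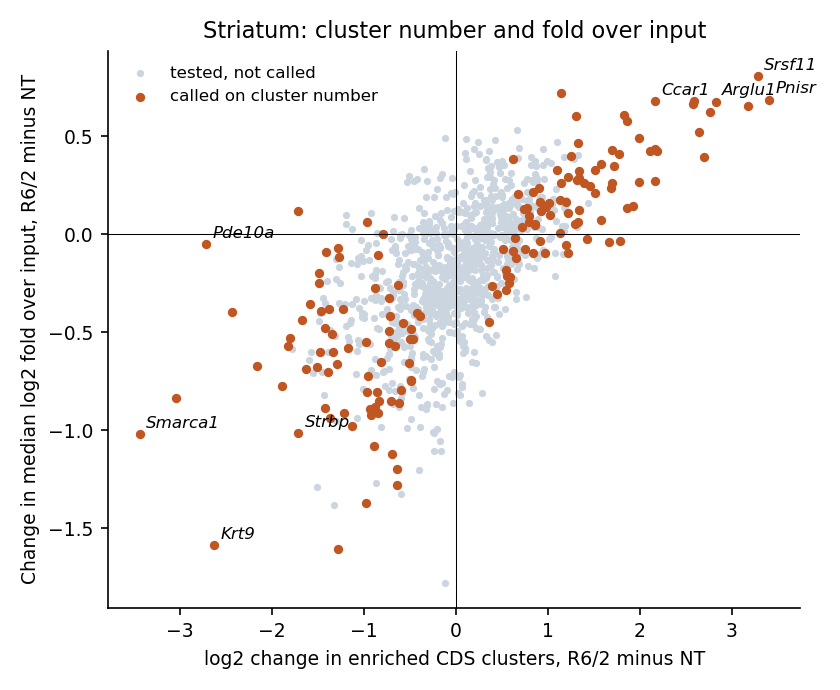
Genes of the striatum tested on cluster number that also had a fold, with the log2 change in number of enriched CDS clusters (horizontal) against the change in relative median log2 fold over input (vertical), R6/2 minus NT. Orange points are the genes called on number. Smarca1, Krt9 and Strbp are low on both axes, Pde10a lies near 0 on the vertical axis, and Srsf11, Arglu1 and Ccar1 are high on both.

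Lists of synaptic, pump and cytoskeletal genes moved in both directions. The striatal background for the counts that follow is 7.28% higher and 6.27% lower. Of 14 postsynaptic scaffold genes tested in the striatum, 3 fell and none rose. These were Dlg4 (the scaffold PSD-95), Dlgap1 (its partner) and Sipa1l1, and Sipa1l1 fell from 42.5 to 27.5 normalized clusters in cortex as well (−0.62, limma adjusted p = 0.000307). Of 14 ATPase and glycolytic genes 3 fell and 2 rose. The calcium pumps Atp2b1 (−0.97), Atp2b2 (−0.69) and Atp2a2 (−0.91) fell in the striatum while the sodium pump subunit Atp1b1 (0.84) rose. Of 28 cytoskeletal and motor genes 4 rose (Macf1, Kif21a, Ank2 and Map2) and none fell. Of 14 active zone genes 1 rose and 1 fell, with Pclo (piccolo) at 0.74 and Rims1 at −0.89. Of 195 genes lower in the striatum across HD mouse models, a published signature that the study used, 30 were tested and 17 fell and 1 rose, with a median of −0.97. Without the libraries rich in intronic clusters 6 of 29 fell and none rose (median −0.74), where 10 of all genes tested were called lower. None of the 14 postsynaptic or 28 cytoskeletal genes was called by limma on that set (medians 0.15 and 0.06, with 2 and 10 at an unadjusted p under 0.05). Nor was any of the 14 ATPase and glycolytic or the 14 active zone genes called by limma then (medians 0.54 and 0.24, with 7 and 1 at an unadjusted p under 0.05), so the calls above on pumps, Pclo and Rims1 were lost. The median over all genes was 0.47 on that set.

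In the cortex, Lrba, Smarca1 and Arc had the largest falls among the genes named. Lrba, a BEACH domain protein of vesicle traffic, had 6.89, 8.98 and 12.7 normalized clusters as lowest, median and highest in NT and 0, 1.05 and 4.77 in R6/2. The groups did not overlap, as in 1.46% of genes tested in this direction (log2 change −2.71, SE 0.43, limma adjusted p = 0.00132). Its changed stretch carries 3 GAGGA and was covered in 8 NT and 1 R6/2 cortex libraries.
Lrba, chr3:86348645-86348708, plus strand, coding exon 22 of 56: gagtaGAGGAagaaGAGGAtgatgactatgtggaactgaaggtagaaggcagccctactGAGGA
Arc, the activity-regulated cytoskeletal gene, had 2.62, 7.23 and 11.7 in NT and 0, 0.55 and 6.36 in R6/2, with overlap (−2.53, SE 0.50, limma adjusted p = 0.00774). Cadps2 (a dense core vesicle priming factor) fell by 2.01, Fmn1 (a formin) by 1.90 and Ttc7b (of a phosphoinositide kinase complex) by 1.88. Of the 45 genes called lower in cortex with 3′ UTR clusters, 44 were lower there as well (median −0.83), beside 778 of all 1109 tested genes of that kind (median −0.22).

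The cortical genes that rose were fewer and changed less. Gpatch8 and Rbm25, the latter a spliceosome-associated protein, rose by 1.62 and 1.07. Gprasp2, Fyco1 and Bcas1 (an oligodendrocyte protein) rose by 1.00, 0.90 and 0.90. Gpatch8, Rbm25, Fyco1 and Bcas1 each lost the call on leaving out some single libraries, and also without the 3 cortical libraries rich in intronic clusters.

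Between the NT regions, 879 of 1784 genes were called (49.3%), 132 higher in striatum (7.40%) and 747 lower (41.9%). The median over all genes tested was −0.71, and the split depended on scaling, with 287 higher and 458 lower when libraries were scaled by their total. The genes named here kept their direction and their call under total and quantile scaling. Pde10a had 13.1 ± 5.25 normalized clusters in striatum and 0.75 ± 0.88 in cortex without overlap, as in 2.07% of genes tested in this direction (log2 change 3.70, SE 0.42, limma adjusted p = 1.88e-06). Ryr1 and Ryr3, ryanodine receptor calcium channels, were higher in striatum by 3.33 and 2.49, and Krt9 by 2.28. Ryr3 ranged from 0 to 37.3 in striatum. Satb1, a genome organiser of cortical neurons, had 7.23 to 13.6 in cortex and 0 in 7 of the 8 striatum libraries. Cux2, a transcription factor of upper cortical layers, Mical2 and Sphkap had no enriched CDS cluster in any NT striatum library, and medians of 10.2, 9.50 and 8.47 in NT cortex. Groups lower in striatum without overlap were common, at 16.6% of genes tested. Cux2, Mical2 and Sphkap could pass the filter for testing through cortex alone.

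These values bear on the labels. The labelled region was borne out by its markers, with 144 ± 30.5 clusters over the medium spiny neuron list in striatum NT against 63.4 ± 4.61 in cortex NT, and 61.8 ± 5.18 over 17 cortical excitatory genes in cortex against 12.0 ± 2.75 in striatum. Beside the genotype results, the cortical excitatory sum in striatum was 12.0 ± 2.75 in NT and 16.6 ± 5.85 in R6/2, and the sum over 14 oligodendrocyte genes was 10.7 ± 6.19 (range 3.31 to 21.9) and 19.1 ± 4.34 (range 10.9 to 24.1). The sum over 14 astrocyte genes was 8.71 ± 5.05 and 10.2 ± 4.14. None of the 13 microglial or 12 vascular genes had an enriched coding cluster in any striatum library. The part of cell composition in the genotype results was not tested.

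The R6/2 effect itself was compared between regions and between sexes. Of 1645 genes tested over all 32 libraries, 1 was called for a region difference (0.0608%), and 173 had an unadjusted p under 0.05. It was Atp6v0a1, a subunit of the proton pump of vesicles and lysosomes, with a log2 difference of 2.98 (SE 0.57, limma adjusted p = 0.0156). In cortex it had 4.26 ± 1.52 in R6/2 and 4.92 ± 1.03 in NT. The call was lost when 2 was added in place of 0.5 and under quantile scaling. In the striatum no gene was called for a difference between sexes in the R6/2 effect by limma (0.00% of 1181), where 91 had an unadjusted p under 0.05.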

How the data were processed

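The authors pulverized frozen cortex and striatum, crosslinked it with UV, immunoprecipitated TDP-43 and sequenced IP and input libraries. Clusters were called per library with CLIPper by the kit's provider on mm10 (versions not given in the sources used here). The deposited lists give each cluster's −log10 p over input (highest value 400) and, per the file values, a log2 fold over input, with no read counts, so depth is unknown. The lists were not filtered by the authors on p-value or fold.

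Members and gene lists were chosen with earlier results of these data known. Midpoints were assigned with GENCODE vM21. Enriched means a −log10 p of 3 or more. Genes had a representative transcript. Library measures were tested by exact permutation, and gene counts with limma 3.58.1 (lmFit, eBayes with trend, sex as covariate) in R 4.3.3 on log2(enriched CDS clusters over median-ratio size factor + 0.5). Named genes are the 6 highest and 6 lowest called changes per genotype comparison (4 and 4 between regions) with a mean of at least 4 whose males and females changed alike, and further the 8 genes with most clusters in all and per kb, 3 per list, Tardbp and Htt. The fit was tested on simulated data, where 90.0% of 4-fold and 19.1% of 2-fold changes were recovered among 1106 striatal genes, and 90.0% and 24.2% among 2206 cortical genes. The simulated counts had a spread set in advance and not fitted to these libraries. Recovery in the real comparisons may therefore differ. Python 3.11.15 was used otherwise. Alternatives were other thresholds, scalings, pseudocounts, filters and left-out libraries. Same-numbered libraries of the 2 genotypes did not all deviate together (correlations −0.42 to 0.30), nor did those of the NT regions (−0.16 to 0.29, with the same number as best match in 3 of 8 pairs, all female), so numbers were not used as pairs. The m6A lists after antisense treatment were not used. Some genes that the naming rule picked are not reported here.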

Additional observations from a re-analysis of the deposited data

Results flagged for a closer look

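Of 168 groups of 4 libraries (1 region, genotype and sex) checked, 14 had a library far from the other 3, and chance alone flags about 1 in 20 groups. The share of enriched CDS clusters in coding exons of 1000 bases or more was 16.02% in cortex R6/2 female 4, where the other 3 females lay between 13.0% and 13.4%. In striatum NT female 3 it was 16.7%, with the others between 14.6% and 14.9%.

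The other flags concern normalized enriched CDS clusters of single genes. In cortex, Fyco1 had 6.09 in NT female 2 (others 4.24 to 4.37), Bcas1 2.01 in R6/2 male 1 (others 5.42 to 5.94), Smarca1 8.54 in NT female 3 (others 14.9 to 16.1) and Arc 1.09 in R6/2 male 3 (others 0). In striatum R6/2, Pnisr had 18.5 in male 4 (others 8.41 to 10.1), Srsf11 22.8 in female 3 (others 13.3 to 14.7), Smarca1 1.59 in female 4 (others 0) and Ppp1r16b 1.43 in male 4 (others 6.31 to 6.97). Pde10a had 8.41 in R6/2 male 1 (others 1.43 to 2.32) and 0.793 in R6/2 female 4 (others 0). In striatum NT, Ccar1 had 0 in female 1 (others 1.91 to 2.22) and Chd6 3.25 in male 4 (others 0).

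The R6/2 effect on Atp6v0a1 differed between regions, by 2.98 on the log2 scale (limma interaction term, adjusted p = 0.0156), with striatum above cortex.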

How the results depend on the processing

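Values are differences in percentage points (position: fraction of the CDS) or numbers of genes called, R6/2 minus NT unless striatum minus cortex is named, and the cause of each change was not tested. Over all listed CDS clusters, striatum minus cortex was −0.390 for long exons, 0.0128 for position, 1.24 for junctions and 0.0343 for UGUGU. R6/2 minus NT was then −0.273 for the last exon in striatum, 1.47 and 2.92 for junctions in cortex and striatum, and −0.119 for UGUGU in cortex. The fits called 339 striatal genes and 26 region differences, and Rbm25 (−0.11), Ccar1 (−0.018), Chd6 (−0.0060) and Atp6v0a1 (−0.048) turned sign. With the study's thresholds the CDS share in striatum differed by 1.39, long exons in cortex by 1.87 and between regions by 1.09, the last exon by 0.957 in cortex and 0.782 in striatum, position between regions by 0.00571, junctions between regions by −2.40, UGUGU in striatum by −0.748 and m6A in striatum by −0.014. It called 43 cortical, 30 striatal, 286 regional genes and 0 region differences. At a −log10 p of 10 or more the CDS share in striatum differed by 3.42, the last exon by −0.349 in striatum and 0.478 between regions, position between regions by 0.00457, junctions in cortex by −3.52 and m6A in striatum by −0.117, with 41 striatal and 200 regional genes and 0 region differences.

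With whole clusters inside CDS, the listed CDS share differed by −6.31 in striatum and 0.524 between regions, the enriched share by −4.13 between regions and m6A in striatum by −1.08, with 0 region differences and 1 sex difference. The following were chosen after seeing the data. Among CDS and UTR clusters alone the listed share differed by 3.69 in cortex, 5.77 in striatum and 0.573 between regions. Without the libraries rich in intronic clusters the CDS share in striatum differed by 5.16, its last exon by −0.573, m6A in striatum by −2.15 and UGUGU in cortex by −0.441, with 70 cortical and 17 striatal genes and 23 region differences. Merging touching clusters called 62 cortical and 89 striatal genes, and the median log2 fold 53 cortical and 202 regional genes. The fold calls fell to 3 in cortex, and from 151 to 0 in striatum, on leaving out the libraries rich in intronic clusters. Quantile scaling called 181 cortical and 251 striatal genes and 0 region differences, no filter 1918 regional genes and 10 region differences, a mean of 4 or more 495 and 0, and 2 added 0 region differences.

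The labels do not pair same-numbered libraries. With the replicate number as a block, the listed share between regions (3.15) lost its call (exact permutation adjusted p = 0.0844), as did UGUGU in cortex (−0.518, adjusted p = 0.0959) and m6A in striatum (−1.23, adjusted p = 0.123), while the enriched share between regions (−2.60, adjusted p = 0.0469) gained one, and 41 cortical genes were called.

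Leaving out 1 library at a time gave 51 to 123 cortical genes (more than 1.5 times fewer than the full count without any 1 of the 8 NT libraries or R6/2 male 2), 125 to 234 striatal genes, 580 to 889 regional genes (580 without cortex NT male 4), 1 to 3 region differences and 0 to 1 sex differences (1 without striatum NT female 1). In striatum the listed CDS share ranged from −6.67 to −3.73 (called without R6/2 male 1 or male 2), the last exon from −0.632 to −0.435 (lost without any 1 of 12 libraries), position from −0.00985 to −0.00296 and UGUGU from −0.748 to −0.413 (both called without R6/2 male 1), and m6A from −1.41 to −0.893 (lost without any 1 of 10). The other library measures kept their side of the threshold. Depth limits cannot be given, since the lists hold no read counts.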
